A study of Mus musculus with 6 samples.

Results

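The pre-B cell receptor was examined in the mouse line i660BM, whose cells are pro-B cells with a doxycycline-inducible PU.1, through 7 genes: Igll1, Vpreb1, Vpreb2 and Vpreb3 of the surrogate light chain family, Cd79a and Cd79b of the signalling chains, and Ighm of the mu heavy chain. Each gene was matched by its symbol to the rows of the authors' deposited table, which has 23793 rows, and 6 of the 7 were found in 1 row each; Ighm was not analysed here. All 6 had been tested by the authors, as had 10657 rows in all.

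The 6 libraries fell into 2 groups of the same line, which the labels give as C57BL/6 and which was grown with interleukin 7: 3 libraries without induction and 3 after 48 h of 70 ng/ml doxycycline, which switches PU.1 on. Spi1 encodes PU.1, a transcription factor of the ETS family found in B and myeloid cells. All libraries come from this single line, and whether they stand for separate cultures is not stated, so the q-values may reflect technical spread only. No library received doxycycline without PU.1, so the drug and the induced factor cannot be told apart. The table holds 1 FPKM value per gene and group (fragments counted, scaled by transcript length and by sequencing depth), so no spread between libraries can be shown. From the spacing of the lowest FPKM values, depth was estimated at about 119000000 fragments over the non-induced and 123000000 over the induced libraries. Only a narrow range of spacings was tried. At the best one, 70.4% of the non-induced and 65.9% of the induced values used lay within 0.15 of a whole number of steps, so this depth is approximate.

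The pre-B cell receptor is the checkpoint of early B cell development. A newly rearranged mu heavy chain pairs with the surrogate light chain, made of lambda 5 (Igll1) and VpreB (Vpreb1 or Vpreb2), and the complex signals through the ITAM-bearing chains Ig-alpha (Cd79a) and Ig-beta (Cd79b). Its signal lets pre-B cells divide and then rearrange their light chain genes, after which the surrogate light chain is switched off. Vpreb3 encodes a related protein that associates with immunoglobulin chains inside the cell.

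The surrogate light chain genes Igll1, Vpreb1 and Vpreb3 rose by 1.75-fold to 2.01-fold after induction, and the signalling chain gene Cd79b rose by 1.39-fold. Vpreb2 and Cd79a did not pass the authors' test. A gene is said to rise or fall, or to be called, where the authors' deposited q-value, adjusted over all rows they tested, was under 0.05. By that rule the authors' deposited table called 4 of 6 receptor genes, all 4 higher, while 35.1% of all tested rows were called, 19.0% higher and 16.1% lower. The median log2 change of the 6 genes was 0.64, against -0.0068 over all tested rows. From bulk RNA, a larger share of cells with a transcript and more transcript per cell cannot be told apart.

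**Figure D1:**
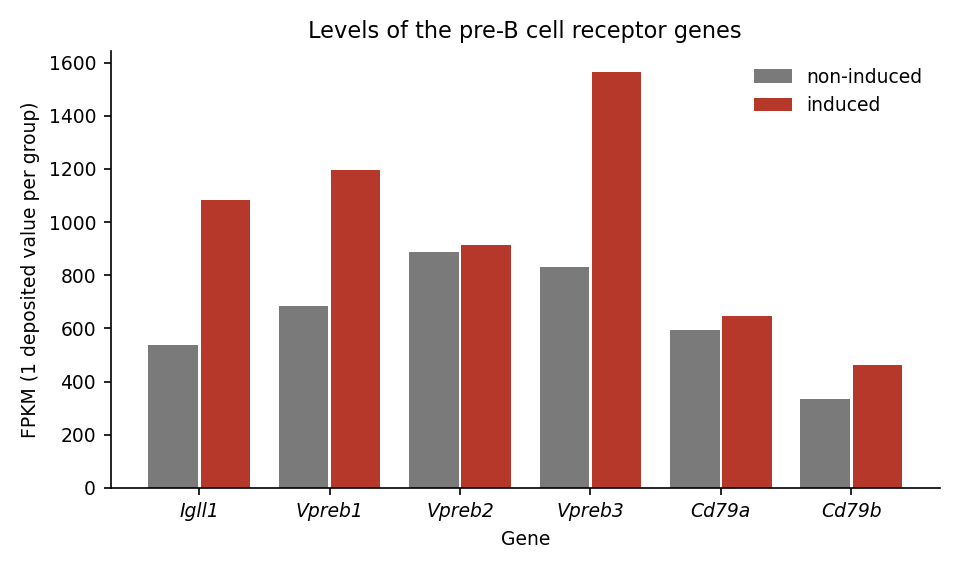
FPKM of the 6 receptor genes in non-induced (grey) and induced (red) cells, 1 deposited value per group and gene, without error bars because no value per library was used. Igll1, Vpreb1 and Vpreb3 stand well above their non-induced levels, and Vpreb2 (888 and 915 FPKM) stays at nearly the same height.

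Igll1 encodes lambda 5, the part of the surrogate light chain that resembles a lambda constant region and that binds the heavy chain covalently. It lies on the minus strand at chr16:16860671-16863985 (mm10) and has 3 exons in the GENCODE M21 annotation of that build. The authors' deposited table put Igll1 at 538 FPKM before and 1083 FPKM after induction. Its log2 change there was 1.01 (q = 0.000287). Dividing this change by the deposited test statistic gives an implied standard error of 0.13, and 1.96 such errors on each side span folds of 1.70 to 2.38, the interval used throughout. The intervals and the calls rest on different scales. Deposited q-values called 35.1% of tested rows, whereas normal p-values from the test statistic called 15.2%. A called gene can therefore have an interval that includes 0. Igll1 had the largest change of the 6 genes.

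Vpreb1 and Vpreb2 are near-identical copies that encode VpreB, the variable-region-like part of the surrogate light chain. Vpreb1 lies 4415 bases from Igll1 on the same strand, at chr16:16868401-16869255 in the table. Vpreb2 lies 1111309 bases beyond Vpreb1 on the plus strand, at chr16:17980565-17981080 in the table. Their coding sequences, taken from GENCODE M21 transcripts, differ at 9 of 426 bases without the stop codon (97.9% identity), and the longest identical run is 196 bases. Counted from the first base of the start codon, with the Vpreb1 base first, the differences are T37C, T39C, T83C, A280G, T345C, C348T, G366C, G378A and G387A. The last 120 coding bases hold 5 of them and are shown with the differing bases in capitals.
Vpreb1: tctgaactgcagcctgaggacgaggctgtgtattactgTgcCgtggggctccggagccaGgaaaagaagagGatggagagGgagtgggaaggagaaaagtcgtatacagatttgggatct
Vpreb2: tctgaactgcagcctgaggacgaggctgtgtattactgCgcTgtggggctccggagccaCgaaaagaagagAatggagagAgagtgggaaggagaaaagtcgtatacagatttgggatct

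The copies had different changes in the table. For Vpreb1 the authors' deposited table gave 683 FPKM before and 1197 FPKM after induction (log2 0.81, implied error 0.12, q = 0.000287). For Vpreb2 the same deposited table gave 888 FPKM before and 915 FPKM after induction (log2 0.04, implied error 0.09, q = 0.746). The interval of the Vpreb2 change ran from -0.13 to 0.22, so a rise as large as that of Vpreb1 lay outside it. With the implied errors taken as independent, the log2 change of Vpreb1 exceeded that of Vpreb2 by 0.77, with an interval of 0.48 to 1.06. These intervals are descriptions from the authors' statistic, since both changes come from the same libraries. Vpreb1 made up 43.5% of the summed FPKM of the pair in non-induced cells and 56.7% in induced cells.

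The sources used here do not say how fragments matching both copies were assigned, and the part of this in the difference was not tested. Of all 25-base windows in the Vpreb1 transcript 56.1% also occur in Vpreb2, and of 100-base windows 14.5%. For Vpreb2, over the part of its transcript that the table's locus covers, the shares were 64.4% and 29.4%. No other pair of the 6 genes shared a 25-base window. The locus of Vpreb2 covers 429 of the 759 bases of its GENCODE transcript, whereas that of Vpreb1 covers all 766, so the level of Vpreb2 rests on a shorter model. Added together, Vpreb1 and Vpreb2 reached 2112 FPKM after induction from 1571 FPKM before it (log2 0.43). With each level weighted by the length of its model, the log2 change of the pair was 0.53.

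The sequence upstream of the copies is as alike as the coding part. The 113 bases before the GENCODE start of Vpreb2 (chr16:17980315-17980427, plus strand) differ from the matching stretch of Vpreb1 (chr16:16869249-16869361, minus strand) at 2 bases, an identity of 98.2%. They are printed 5′ to 3′ from RefSeq (GRCm38.p6), with the differing bases in capitals, because Vpreb1 was called and Vpreb2 was not.
Vpreb1: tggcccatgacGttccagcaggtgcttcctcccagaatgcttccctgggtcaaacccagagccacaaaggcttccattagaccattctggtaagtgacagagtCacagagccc
Vpreb2: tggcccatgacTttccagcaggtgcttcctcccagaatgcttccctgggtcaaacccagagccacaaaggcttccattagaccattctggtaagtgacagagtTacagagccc
Both stretches hold the letters CAGGTG, an E-box, at bases 19 to 24 and GAGGAA, the core of a PU.1 site, on the opposite strand at bases 26 to 31. Neither of the differing bases falls in these letters. The Vpreb1 stretch lies within the GENCODE extent of that gene, which reaches chr16:16870843.

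Vpreb3 was the most abundant of the 6 transcripts after induction. Its place in the table is chr10:75948312-75949646, plus strand, away from the other surrogate light chain genes. The authors' deposited table listed Vpreb3 at 831 FPKM before and 1566 FPKM after induction. Its log2 change of 0.91 there (implied error 0.10, q = 0.000287) has an interval that spans folds of 1.64 to 2.17. By intervals from the implied errors, the changes of Igll1, Vpreb1 and Vpreb3 could not be ordered. Igll1 exceeded Vpreb3 by 0.09 (interval -0.22 to 0.41) and Vpreb1 by 0.20 (-0.14 to 0.54) on the log2 scale.

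The signalling chain genes had log2 changes of 0.47 and 0.12. Cd79b, which encodes Ig-beta, lies on the minus strand at chr11:106311341-106314529 in the table. The authors' deposited table shows it rising to 462 FPKM from 333 FPKM, a log2 change of 0.47 (implied error 0.13, q = 0.000287). Cd79a, which encodes Ig-alpha, lies on the plus strand at chr7:24897511-24902197 in the table. For Cd79a the authors' deposited table gave 596 FPKM before and 646 FPKM after induction (q = 0.283). Its log2 change of 0.12 had an interval of -0.14 to 0.38, so a 1.30-fold rise lay at its upper bound. By the implied errors, a difference between the changes of Cd79a and Cd79b was not established. Cd79a minus Cd79b was -0.35 with an interval of -0.72 to 0.009. The ratio of Cd79a to Cd79b was 1.79 in non-induced and 1.40 in induced cells.

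**Figure D2:**
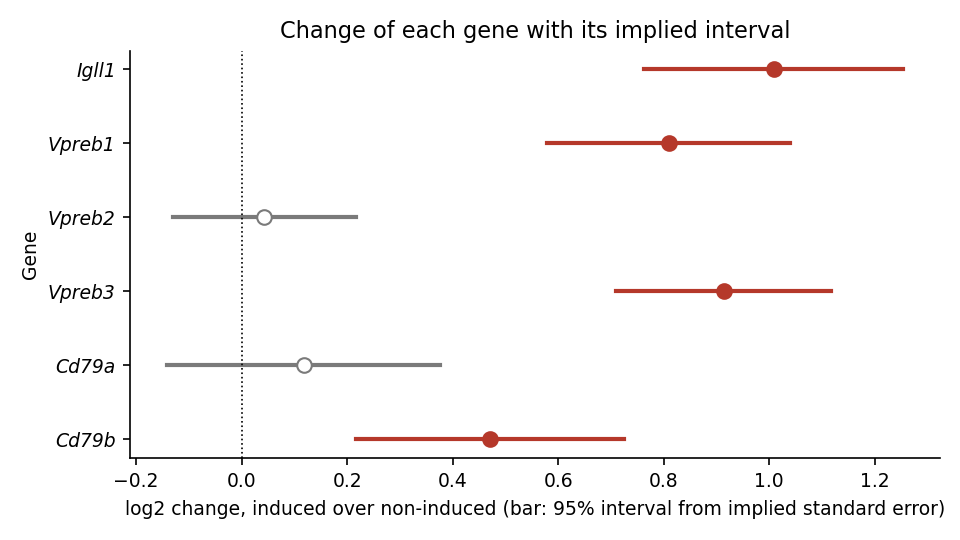
Log2 change of each receptor gene, induced over non-induced, with bars of 1.96 implied standard errors on each side. Filled red points were called and open grey points were not. The intervals of Igll1, Vpreb1 and Vpreb3 overlap one another and lie above those of Vpreb2 and Cd79a.

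The log2 change of Igll1 exceeded those of both signalling chain genes. The difference was 0.54 against Cd79b (interval 0.18 to 0.89) and 0.89 against Cd79a (0.53 to 1.25), with implied errors taken as independent. Vpreb3 exceeded Cd79b by 0.44 (0.12 to 0.77), whereas for Vpreb1 minus Cd79b, at 0.34, the interval of -0.0049 to 0.68 included 0. Since FPKM is scaled by length, levels can be set side by side within a group, with the limit given for Vpreb2. Igll1 stood at 0.90 of the Cd79a level in non-induced and 1.68 of it in induced cells. Against Vpreb1 and Vpreb2 added together it stood at 0.34 and 0.51. From the highest to the lowest, the non-induced order was Vpreb2, Vpreb3, Vpreb1, Cd79a, Igll1 and Cd79b, and the induced order Vpreb3, Vpreb1, Igll1, Vpreb2, Cd79a and Cd79b. Without values per library, which neighbours in these orders differ beyond their spread cannot be said. The genes spanned 2.67-fold from highest to lowest before and 3.39-fold after induction.

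All 6 genes were among the most abundant transcripts of the cells already before induction. Ranked by FPKM over all rows of the authors' deposited table, Igll1 moved from rank 77 to 28, Vpreb1 from 49 to 24, Vpreb3 from 36 to 15, Cd79b from 154 to 93 and Cd79a from 66 to 55, while Vpreb2 moved from 32 to 37. Each FPKM value rested on roughly 45300 to 116000 fragments per group, estimated from the steps and the transcript lengths. Counting error alone would give a log2 error of 0.0065 to 0.0094, well under the implied errors of 0.09 to 0.13.

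The receptor genes were also set beside other abundant transcripts. All 6 receptor genes exceed 300 FPKM in both groups, a bound set after their levels were seen. Of 170 tested rows above it, the authors' deposited table called 29.4%, 15.9% higher and 13.5% lower. Among these rows Igll1 had the largest log2 change, Vpreb3 the second, Vpreb1 the fifth and Cd79b the 12th, whereas Cd79a was 38th and Vpreb2 55th. Ranks 3 and 4 were held by Ccnd3, a D-type cyclin in a shared locus (log2 0.85), and the glutathione peroxidase gene Gpx1 (0.82). Of these rows, 0.588% were called with a change at least that of Igll1, 1.18% at least that of Vpreb3, 2.94% at least that of Vpreb1 and 7.06% at least that of Cd79b. These shares restate the ranks, since they count the receptor genes themselves: the first is Igll1 alone. Over all tested rows, at any level, the shares were 2.51%, 3.03%, 3.72% and 8.37%. With a further minimum of 1.5-fold, 3 of the 6 receptor genes were called, all higher, against 10.2% of all tested rows, 6.34% higher. Over rows reaching 5 FPKM in a group, 4 of 6 were called against 33.9% (18.2% higher), and over rows with no shared locus 4 of 6 against 38.7% (20.6% higher). By distance over the log2 FPKM of both groups, the 5 tested genes nearest to Igll1 were Fth1 (0.25), Ccnd3 (0.29), Vpreb1 (0.37), Arhgdib (0.48) and Ly6e (0.54).

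**Figure D3:**
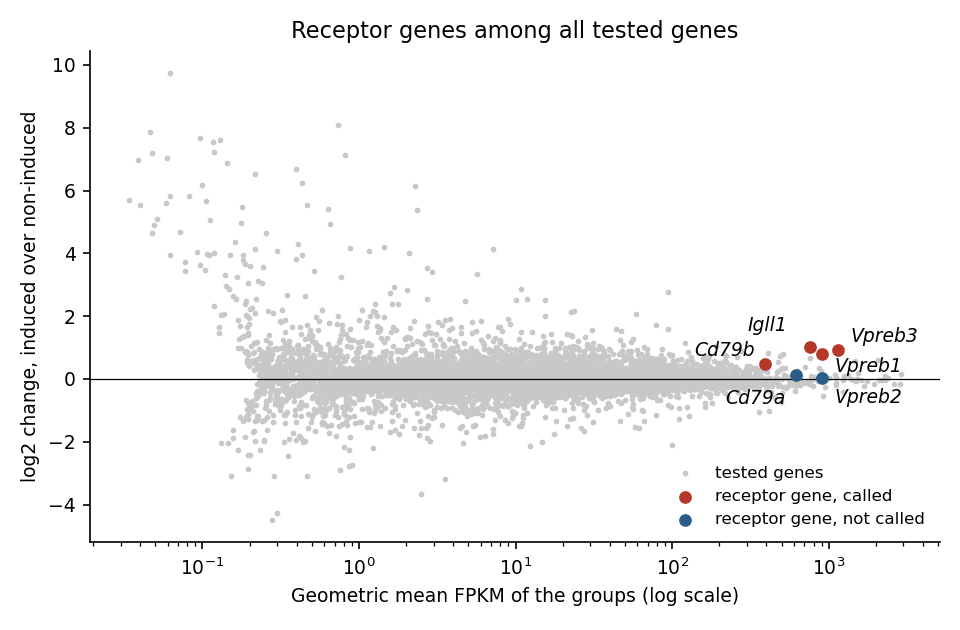
Log2 change (vertical) against the geometric mean FPKM of the groups (horizontal, log scale) for tested rows above 0 in both groups, in light grey. The 6 receptor genes lie at the right edge, where most rows lie near 0; Igll1 at 1.01 is the highest of the 170 rows above 300 FPKM in both groups, and Vpreb2 and Cd79a (blue) were not called.

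RefSeq promoter windows, from 250 bases before to 50 after the start, were found for 5 of the 6 genes, all but Cd79b. Letters for factors of the early B cell programme were searched on both strands: GAGGAA (PU.1 core), CCCNNGGG (EBF1), CAGCTG and CAGGTG (E-boxes) and TGTTTAC (FOXO). The 250 bases before the start of Igll1 (chr16:16863986-16864235, minus strand) and Cd79a (chr7:24897247-24897496, plus strand) are shown as the gene with the largest change and a signalling chain that was not called, with matches in capitals.
Igll1: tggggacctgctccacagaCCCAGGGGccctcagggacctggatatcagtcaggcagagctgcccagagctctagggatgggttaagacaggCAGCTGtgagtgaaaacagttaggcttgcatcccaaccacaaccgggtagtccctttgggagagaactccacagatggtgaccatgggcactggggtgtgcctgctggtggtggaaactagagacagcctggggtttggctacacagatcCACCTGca
Cd79a: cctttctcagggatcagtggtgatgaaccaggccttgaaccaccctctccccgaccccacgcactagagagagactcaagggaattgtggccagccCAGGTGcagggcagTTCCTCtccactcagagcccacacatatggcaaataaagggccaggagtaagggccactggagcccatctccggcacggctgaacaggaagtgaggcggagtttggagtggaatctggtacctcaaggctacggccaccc
In Igll1 these are, in order, the EBF1 letters, the first E-box and, read on the opposite strand, the second E-box. The PU.1 core lies at bases 26 to 31 after the Igll1 start, beyond the printed stretch. In Cd79a they are the second E-box on the printed strand and the PU.1 core read on the opposite strand. The GENCODE start of Cd79a, chr7:24897381, lies within the printed stretch, so its later bases belong to that transcript.

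The PU.1 core letters did not separate the genes that rose from the others. GAGGAA was found in 4 of the 5 windows, those of Igll1, Vpreb1, Vpreb2 and Cd79a, and in 28.3% of all 32851 windows of this length. CAGGTG was in 4 of 5 windows against 20.2% of all, CAGCTG in 2 against 16.3% and CCCNNGGG in 1 against 13.7%. TGTTTAC was in none of the 5 and in 3.65% of all windows. The window of Vpreb3 held none of these letters, and no matches in the 5 windows overlapped one another. The windows of Vpreb2 and Cd79a are placed on RefSeq starts that lie inside the GENCODE transcripts. The GENCODE genes of Vpreb1 and Vpreb3 also extend upstream of the loci given above, to chr16:16870843 and chr10:75943057. A match of letters is a description of the window, not of binding. Only these exact letters were searched, so sites of the same factors with other letters were not counted.

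The genes next to the receptor genes on the chromosome were examined as well, since Igll1 and Vpreb1 are adjacent. The 3 table genes on each side of each receptor gene made 30 neighbours, of which 20 had been tested, and the authors' deposited table called 6 higher and 2 lower. Both directions together, these 8 of 20 are near the 35.1% called over all tested rows, so that count does not set the neighbours apart. By direction they were 6 and 2 of 20, where 19.0% of all tested rows were called higher and 16.1% lower. The median log2 change of the tested neighbours was 0.14, against -0.0068 over all tested rows. These differences were not tested. Top3b, the DNA topoisomerase gene beside Vpreb1, had a smaller rise than Igll1 and Vpreb1, a difference that was not tested (log2 0.32, implied error 0.14, deposited q = 0.00055). Ppm1f, the next gene, which encodes a protein phosphatase, fell (log2 -0.46, q = 0.000287 in the authors' deposited table). Around Vpreb2, which was not called, Dgcr6 (0.89) and the proline dehydrogenase gene Prodh (2.84) rose and the citrate carrier gene Slc25a1 fell (log2 -0.54) in the authors' deposited table. Next to Vpreb3, the mitochondrial protein gene Chchd10 (0.33) and the metalloproteinase gene Mmp11 (0.33) rose in the authors' deposited table. Beside Cd79b, the sodium channel gene Scn4a was the 1 neighbour called (0.27, q = 0.0224 in the authors' deposited table), at 1.82 and 2.19 FPKM. Around Cd79a no tested neighbour was called in the authors' deposited table.

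**Figure D4:**
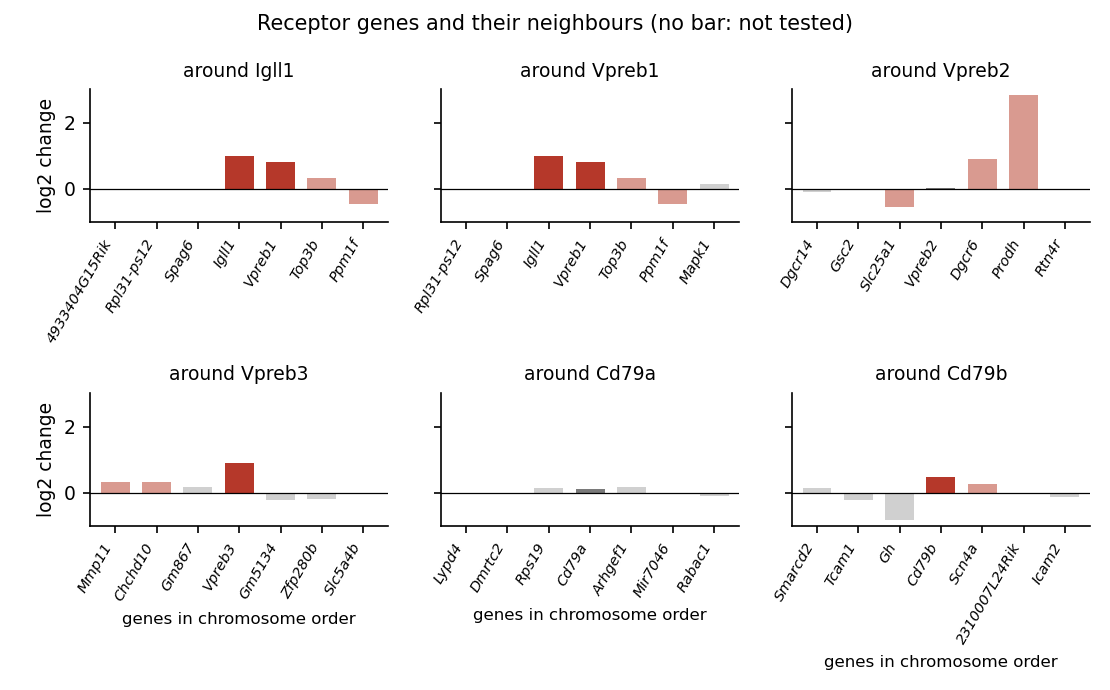
Log2 change of each receptor gene (dark bars) and of the 3 table genes on each side in chromosome order (pale bars), red where called and grey where not; genes without a bar had not been tested. Igll1 and Vpreb1 stand together at 1.01 and 0.81, and Top3b beside them at 0.32.

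More of the listed early B cell transcription factors were called higher than lower. For Spi1 the authors' deposited table gave 36.0 FPKM before and 246 FPKM after induction (log2 2.78, q = 0.000287). Of 19 listed factors, all tested, 11 were called higher and 3 lower, and the median log2 change was 0.38. Over all tested rows, 19.0% were called higher and 16.1% lower. The factors called higher include Spi1, the gene that was induced. Ebf1 (0.42) and Pax5 (0.38), core factors of B cell identity, were among those that rose in the authors' deposited table, while Lef1 (0.10, q = 0.415) and Sox4 (0.16, q = 0.141) were not called there. Tcf3, which encodes the E-box factors E12 and E47, stood at 193 and 194 FPKM (q = 0.965 in the authors' deposited table). Spib, a close relative of Spi1, stood at 8.65 and 8.30 FPKM (q = 0.671 in the authors' deposited table). The largest changes beside Spi1 were the fall of Myc (-0.76) and the rises of Bach2 (0.75) and Myb (0.71) in the authors' deposited table. The loci of Bach2 and Pax5 are each shared with another row. Irf4 (-0.68) and Ets1 (-0.54) were the other lower factors in the authors' deposited table.

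Downstream of the receptor, the kinase Syk, which docks on phosphorylated ITAMs, had a larger log2 change than any receptor gene, a difference that was not tested. The authors' deposited table gave Syk 25.5 FPKM before and 76.2 FPKM after induction (log2 1.58). Zap70, its T cell relative, fell to 19.3 FPKM from 43.0 FPKM there (log2 -1.16). Of 28 listed proximal signalling genes 26 had been tested; 17 were called higher and 3 lower, with a median log2 change of 0.42. The shares over all tested rows were 19.0% higher and 16.1% lower. With normal p-values from the authors' test statistic, 13 of these signalling genes were called higher and 2 lower. By those p-values 9.0% of all rows were called higher. The adaptor gene Pik3ap1 rose (1.54), and the adaptor genes Lcp2 (-1.49) and Lat (-0.21) fell, in the authors' deposited table. The fall of Lat had an implied error of 0.14, and its locus is shared with another row. Blnk, the adaptor downstream of Syk, rose by a log2 change of 0.51 in that deposited table. The phospholipase gene Plcg2 (117 and 121 FPKM) was not called by the authors' deposited q-value.

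Genes that help the chains fold in the endoplasmic reticulum did not rise with the receptor genes as a list. Of 14 genes, all tested, 3 were called higher and 4 lower, and the median log2 change was -0.13. The 3 higher genes are near the 19.0% called higher over all tested rows, where 16.1% were called lower. The heavy chain chaperone gene Hspa5 (BiP) fell to 394 FPKM from 460 FPKM (log2 -0.23, q = 0.0231), and Hyou1 (-0.41), Calr (-0.27) and Canx (-0.24) were the other lower genes in the authors' deposited table. Dnajb9 (0.26), Ero1lb (0.24) and Mzb1 (0.22) were higher in the authors' deposited table. When normal p-values were taken from the authors' test statistic, 0 of the 14 were called higher and 1 lower. Those p-values called 15.2% of all rows in either direction and 9.0% higher. J chain (Igj) had 0.701 FPKM before and 0.534 FPKM after induction and missed the threshold (deposited q = 0.0618); the other 7 heavy chain and J chain list members were not analysed here.

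Of the ligand and synapse genes, Lgals1, which encodes galectin 1, a ligand of the receptor, rose to 589 FPKM from 466 FPKM in the authors' deposited table (log2 0.34, q = 0.00055). Of the integrin chains, Itga4 (1.15) rose and Itgb1 (-0.38) fell in the authors' deposited table, and Itga5 had not been tested. Itga4 shares its locus with another row.

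Genes that mark the passage from the pro-B to the pre-B stage were called higher in 14 of 16 tested cases, and lower in 1, in the authors' deposited table. Their median log2 change was 0.91. Of all tested rows, 19.0% were called higher and 16.1% lower. The list holds genes of opposite stages: Il7r, the interleukin 7 receptor gene (1.71), and the terminal transferase gene Dntt (1.63) belong to pro-B cells, and Bcl6 (1.83), Il2ra (0.70) and Cd2 (0.53) to pre-B cells, and all of these rose in the authors' deposited table. Rag1 was called with a log2 change of 6.96 (implied error 1.45), from 0.00348 FPKM before to 0.434 FPKM after induction. Rag2, which shares its locus with another row, missed the threshold at 0.00853 FPKM before and 1.60 FPKM after (deposited q = 0.181). The cyclin gene Ccnd3, which pre-B cell division requires, reached 1167 FPKM from 646 FPKM, and Ccnd2 fell to 18.9 FPKM from 29.6 FPKM, by the authors' deposited table. The loci of Ccnd3 and Ccnd2 are each shared with another row. Kit, a pro-B cell receptor kinase, was listed at 0 in both groups.

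**Figure D5:**
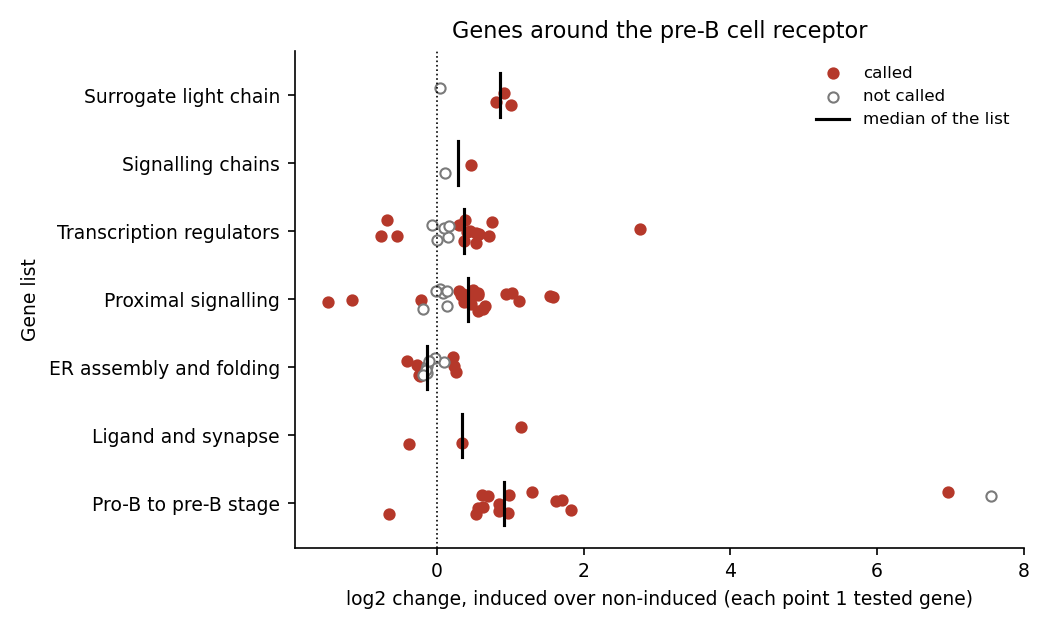
Log2 change of each tested gene, grouped by list, with called genes filled red, others open grey, and a black tick at the median of the list. Of the 7 lists drawn, the surrogate light chain (median 0.86) and stage lists (0.91) lie highest and the folding list (-0.13) lies lowest; the point at 2.78 among the regulators is Spi1, the induced gene.

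The labelled cell type was checked against markers that are not receptor genes. Of 8 B cell precursor markers all were tested and 6 were called higher, and their summed level was 704 FPKM before and 966 FPKM after induction. Blnk, Il7r, Dntt and Rag1, named above, are among these markers. For scale, 19.0% of all tested rows were called higher and 16.1% lower. The T cell markers Cd3e and Cd4 were listed at 0 in both groups, and the list's summed level of 66.4 and 46.6 FPKM was nearly all Lck. The 8 myeloid markers summed to 0.378 and 16.5 FPKM, of which Lyz2 made 15.2 FPKM after induction, with Elane and S100a8 listed at 0 in both groups. Summed levels in non-induced and induced cells were 182 and 121 FPKM for 5 plasma cell markers, 1.24 and 0.526 FPKM for 3 erythroid markers and 4.62 and 6.63 FPKM for 4 mature B cell markers. Of the tested markers, 1 of 2 T cell, 3 of 5 plasma cell and 1 of 1 erythroid genes were called lower, 2 of 2 myeloid genes higher, and 1 of 2 mature B cell genes in each direction. The part of these changes in the receptor results was not tested.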

How the data were processed

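Messenger RNA of 3 non-induced and 3 induced samples was sequenced as stranded libraries, per the labels' protocols. The submitters' processing notes list Trim Galore 0.2.8.1, TopHat2 2.0.9, Cufflinks, Cuffdiff 2.1.1 and build mm10. Annotation, strand setting and the treatment of fragments with several matches, by contrast, are not given in the sources. Deposited by the authors, the table holds 1 FPKM value per gene and group, with a score (the test statistic), a log2 fold change, a p-value and a q-value, per the file headers. These were used as deposited. Recomputing q by Benjamini-Hochberg over the 10657 tested rows gave differences of at most 5.15e-07. No p-value is below 5e-05, where 1855 rows tie.

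No test was made on the group values. The calling from normal p-values was tested on data simulated with normal errors, which does not test the deposited p-values. Intervals are 1.96 implied standard errors. Table starts were raised by 1 to count from 1. Alternatives were normal p-values, stricter q, a 1.5-fold minimum, FPKM minimums, shared loci, other scalings and pseudocounts. Named genes were all receptor genes, Spi1, called genes among the 4 largest changes of each list, a list's best-known gene where it was not called, 3 neighbours a side and the 5 genes nearest Igll1. Other genes were named after their values were seen (Ebf1, Pax5, Lef1, Sox4, Blnk, Lat, Il2ra, Cd2, Ccnd3 and Ccnd2 among them). Protein comparisons planned at the outset were not run. The receptor genes and lists were chosen with earlier results of these data known. Sequences came from RefSeq (GRCm38.p6) and GENCODE M21. Python 3.11.15, pandas 2.3.3, numpy 2.4.6, scipy 1.17.1 and matplotlib 3.10.9 were used.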

Additional observations from a re-analysis of the deposited data

How the results depend on the processing

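The same 4 receptor genes were called with normal p-values, at a deposited q under 0.01, over rows of at least 1 or 5 FPKM and without shared loci. With a minimum of 1.5-fold, Cd79b was lost and 3 remained. The count over all tested rows was 3744, against 1612 with normal p-values and 1086 with at least 1.5-fold. The folding list had 3 higher and 4 lower genes, against 0 and 1 with normal p-values. The FPKM and locus limits excluded none of the receptor genes. The 36 log2 changes of receptor genes recomputed with 4 scalings and 2 pseudocounts each moved by less than the gene's implied standard error, by at most 0.03. Each scaling shifts all genes by the same amount, and the pseudocounts are small beside these levels, so differences between the receptor genes could hardly move. The sum of Vpreb1 and Vpreb2, and the scaling to rows of at least 100 FPKM, were added after seeing the data. No paired analysis was possible because the table holds 1 value per group, and no library could be left out for the same reason.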
